A study of Mus musculus with 8 samples.

Results

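The 10 genes described here encode surface proteins of white blood cells. They are *Ptprc*, *Cd53*, *Cd37*, *Cd52* and *Cd48*, which are broadly expressed on leukocytes, *Cd80*, *Cd86* and *Cd40*, which take part in costimulation, and the adhesion genes *Cd44* and *Icam1*. They were listed by name, with earlier results of these data known, and all 10 were found among the 44674 genes of the deposited tables through the mouse annotation on GRCm38. They were measured by mRNA sequencing in brown adipose tissue (BAT), the tissue that burns fat to make heat, of 4 control mice and 4 Ox1RΔSERT mice. Controls carried floxed alleles of the orexin receptor Ox1R and no Cre (Ox1R fl/fl, Sert-Cre wt/wt). Ox1RΔSERT mice, labelled Sert-Ox1R, carried the same floxed alleles and a Cre driven by the serotonin transporter gene (Ox1R fl/fl, Sert-Cre tg/wt), so that the receptor is removed from SERT-expressing cells, chiefly serotonergic neurons. Recombination in BAT itself was not checked. All 8 mice were males fed a high-fat diet from week 4 to week 18, and BAT was taken after a hyperinsulinemic-euglycemic clamp, in which insulin is infused and blood glucose is held constant. Each library is 1 mouse.

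An adaptive immune response needs more than antigen. A T cell that meets its antigen also needs CD80 or CD86 on the presenting cell, which bind CD28 on the T cell, and the presenting cell is itself activated through CD40. CD45, the product of *Ptprc*, is a tyrosine phosphatase on nearly all nucleated blood cells and serves as their common marker. In adipose tissue most such cells are macrophages, and CD44 and ICAM-1 are also found on stromal and endothelial cells.

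The libraries held 35852708 to 50063339 estimated counts, of which 33.6% to 46.8% came from mitochondrially encoded genes. Mice 11601 and 11708, both Ox1RΔSERT, stood apart from the rest. On the first principal component, with 53.6% of the variance, they lay at 59.3 and 77.0, and the other 6 mice lay between −44.3 and 7.13. *Ucp1*, the uncoupling protein of brown fat, was at 1863 to 2638 TPM in all mice, and at 3731 to 4894 normalized in controls and 2513 to 3817 in Ox1RΔSERT mice. *Hcrtr1*, which encodes Ox1R, had 0 to 5 counts in BAT of either group, so these libraries do not check a deletion made in neurons. In whole tissue, fewer cells of a type and less RNA per cell cannot be told apart.

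In BAT of mice 11601 and 11708 most of the 10 genes were several-fold above the control mean. The other 6 mice also varied, with *Ptprc* at 3.27 to 7.83, *Cd52* at 0.700 to 2.38 and *Icam1* at 5.15 to 9.52 normalized. Relative to the control mean, *Ptprc* was 5.10-fold and 4.55-fold in these 2 mice, *Cd80* 12.8-fold and 9.64-fold, and *Cd44* 10.8-fold and 7.70-fold. *Icam1* was 1.65-fold and 1.76-fold, and *Cd40* 1.38-fold and 1.58-fold. For all 10 genes these were the 2 mice with the highest values, an order found in 20.1% of all 14489 genes tested. Over the groups, edgeR's quasi-likelihood test with Benjamini-Hochberg adjustment called 0 of the 10 genes, and 0.0% of all genes. At an unadjusted p under 0.05, 9 of the 10 were higher in Ox1RΔSERT mice in edgeR, against 10.2% of all genes tested. DESeq2 called 4 of the 10, *Ptprc*, *Cd80*, *Cd52* and *Cd53*, all higher, against 1.54% of the genes it tested. With 1 mouse left out it called from 0 of the 10 (without control 11560, control 11563, mouse 11601 or mouse 11708) to 8 (without mouse 11243). The median log2 fold change of the 10 genes in edgeR was 1.61, beside 0.0021 for all genes. Without mice 11601 and 11708, neither tool called any of the 10, and edgeR gave 0 of them an unadjusted p under 0.05. These mice were left out after the data were seen and because they stood apart, and 2 mice remain against 4, so estimates without them are lower by construction and are given as values only.

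**Figure D1:**
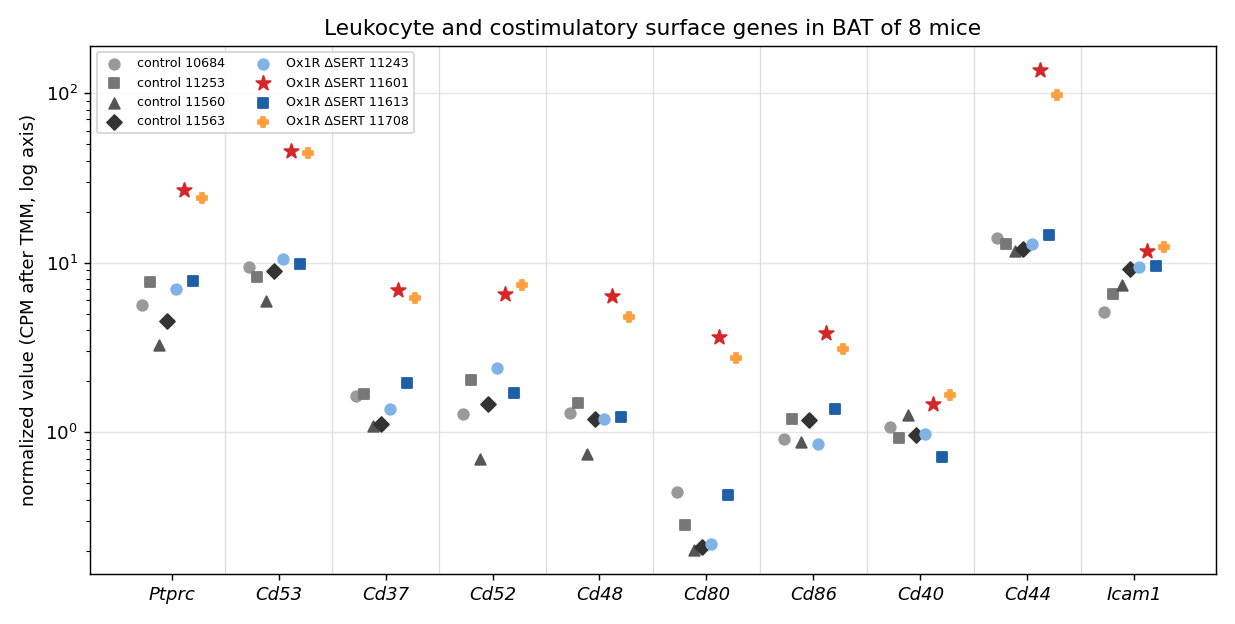
Normalized value (CPM after TMM scaling, log axis) of each gene in each of the 8 mice, with controls in grey and black and Ox1RΔSERT mice in colour. Mice 11601 (star) and 11708 (cross) lie above the other 6 mice for every gene, by the widest margin for *Cd80* and *Cd44* and by the narrowest for *Cd40* and *Icam1*.

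*Ptprc* (ENSMUSG00000026395) lies on the minus strand of chromosome 1 at 138062861 to 138175708 of GRCm38. Its normalized values, which are CPM after TMM scaling, were 5.62, 7.67, 3.27 and 4.56 in control mice 10684, 11253, 11560 and 11563, in the order used throughout. They were 6.96, 26.9, 7.83 and 24.04 in Ox1RΔSERT mice 11243, 11601, 11613 and 11708. Thus 3 of 4 Ox1RΔSERT mice exceeded every control, mouse 11613 only narrowly, and mouse 11243 lay within the control range. The log2 fold change was 1.64 ± 0.49 (SE, n = 4 mice per group), with an adjusted p of 0.316 in edgeR and 0.0322 in DESeq2. Without the 2 high mice it was 0.50 ± 0.30 in edgeR.

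The bases before a RefSeq start are shown for 4 of the genes. They are *Ptprc*, the common marker, *Cd80* and *Cd44*, with the largest folds in the 2 high mice, and *Icam1*, with a small one. Each run gives the 250 bases before a RefSeq start on GRCm38.p6, 5′ to 3′ on the strand of the gene, with capitals for matches to the motifs searched. The windows are chr1:138175306-138175555 (minus), chr16:38458683-38458932 (plus), chr2:102901666-102901915 (minus) and chr9:21015690-21015939 (plus). The *Ptprc* and *Cd80* windows lie inside the annotated genes. On its strand *Ptprc* starts at 138175708 and *Cd80* at 38455561.
Ptprc: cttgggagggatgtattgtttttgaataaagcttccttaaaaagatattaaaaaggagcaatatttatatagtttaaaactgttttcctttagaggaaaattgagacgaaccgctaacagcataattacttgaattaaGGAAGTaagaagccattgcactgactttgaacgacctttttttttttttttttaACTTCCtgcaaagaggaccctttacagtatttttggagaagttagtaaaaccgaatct
Cd80: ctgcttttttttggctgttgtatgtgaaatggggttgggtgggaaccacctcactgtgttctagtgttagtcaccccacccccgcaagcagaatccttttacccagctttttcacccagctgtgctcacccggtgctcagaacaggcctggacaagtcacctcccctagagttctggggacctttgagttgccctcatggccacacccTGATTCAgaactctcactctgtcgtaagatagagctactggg
Cd44: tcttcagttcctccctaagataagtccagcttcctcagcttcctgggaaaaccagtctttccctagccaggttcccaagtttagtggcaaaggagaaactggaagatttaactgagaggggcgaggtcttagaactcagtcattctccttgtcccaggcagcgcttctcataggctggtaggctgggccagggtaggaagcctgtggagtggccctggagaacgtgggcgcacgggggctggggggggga
Icam1: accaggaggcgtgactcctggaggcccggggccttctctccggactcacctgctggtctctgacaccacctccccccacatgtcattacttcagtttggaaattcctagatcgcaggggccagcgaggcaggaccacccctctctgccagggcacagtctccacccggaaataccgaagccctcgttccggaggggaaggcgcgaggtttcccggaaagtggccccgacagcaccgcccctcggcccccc
RefSeq gave windows for 7 of the 10 genes and none was at hand for *Cd86*, *Cd40* and *Cd52*. Searched on both strands were a strict form of the NF-kB motif, other forms of which were not searched, a PU.1 motif (GAGGAAGT), the ETS core it contains (GGAAGT), AP-1 (TGANTCA), C/EBP (TTGCNNAA) and an IRF motif. The *Ptprc* window shown held the ETS core at 2 places, with first bases 112 and 58 bases before the start, the second on the other strand. Another *Ptprc* window, not shown, overlaps it and holds the latter match. The ETS core was in 19.7% of the 32851 windows of all genes. The *Cd80* window held 1 AP-1 match, 42 bases before the start, a motif found in 6.75% of all windows. *Cd37*, whose product is a leukocyte tetraspanin, held the PU.1 motif 25 bases before its start, as did 2.44% of all windows. The *Cd37* window lies inside the annotated gene, and 165 of its 250 bases are in annotated exons of any gene on either strand. The *Cd48* window ends before the annotated start of *Cd48*, and 239 of its 250 bases are in such exons. The *Cd44*, *Icam1*, *Cd53* and *Cd48* windows held none of the 6 motifs. Matches to the strict NF-kB form, C/EBP and IRF, found in 0.356%, 9.56% and 2.98% of all windows, were in none of the 7 genes. A match describes letters and not a bound site, and the lack of one says only that these letters are not in the window.

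Among the other broad leukocyte genes, *Cd53* and *Cd37* encode tetraspanins, membrane proteins that organise receptors into domains. *Cd53* (chromosome 3, 106759921 to 106790149) was the gene with the highest TPM of the 10 in controls. Its normalized values were 9.49, 8.28, 5.98 and 8.93 in controls and 10.5, 45.3, 9.81 and 44.5 in Ox1RΔSERT mice. All 4 Ox1RΔSERT mice exceeded all controls, although mice 11243 and 11613 did so by little. The log2 fold change was 1.75 ± 0.53 (SE), with an adjusted p of 0.316 in edgeR and 0.0305 in DESeq2. The exact permutation test gave p = 0.0286, the smallest that 70 assignments of 4 against 4 mice allow, before any adjustment. Without mice 11601 and 11708 the log2 fold change was 0.32 ± 0.19 in edgeR. In normalized values groups failed to overlap, with Ox1RΔSERT higher, in 2.69% of all genes tested (5.5% in either direction), and in 2 of the 10 genes here, *Cd53* and *Icam1*. Which genes separated depended on the scaling. In TPM the highest control and lowest Ox1RΔSERT mouse overlapped for *Cd53* (5.99 and 5.93) and *Icam1* (2.85 and 2.77). They did not for *Ptprc* (1.16 and 1.20) and *Cd52* (3.89 and 4.34).

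*Cd37* (chromosome 7, 45233632 to 45239115) was lower in abundance, with normalized values of 1.65, 1.68, 1.08 and 1.11 in controls and 1.38, 6.90, 1.95 and 6.23 in Ox1RΔSERT mice. Mouse 11243 lay within the control range and mouse 11613 just above it. edgeR gave a log2 fold change of 1.58 ± 0.52, with an adjusted p of 0.316, and DESeq2 an adjusted p of 0.0663. Without the 2 high mice the estimate was 0.28 ± 0.29.

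*Cd52* (chromosome 4, 134082448 to 134095082) encodes a small glycopeptide anchored to the lymphocyte and myeloid surface. It was at 1.28, 2.03, 0.700 and 1.47 normalized in controls and at 2.38, 6.51, 1.71 and 7.40 in Ox1RΔSERT mice. Here mouse 11243 exceeded all controls while mouse 11613 did not, and mouse 11708 was the highest. This gave a log2 fold change of 1.72 ± 0.52, with an adjusted p of 0.316 in edgeR and 0.0406 in DESeq2. Without the 2 high mice it was 0.59 ± 0.39 in edgeR, the largest value of the 10 genes in that comparison. Its exons share 172 bases with *Crybg2* and those of *Cd37* share 13 with *Tead2*, each on the opposite strand. The libraries were stranded, and the strand setting of the quantification is not given in the sources used here.

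*Cd48* (chromosome 1, 171682009 to 171705258) encodes a GPI-linked SLAM protein that binds CD2 and CD244. Normalized values were 1.31, 1.49, 0.745 and 1.20 in controls and 1.20, 6.35, 1.24 and 4.79 in Ox1RΔSERT mice. Outside mice 11601 and 11708 the values of the groups were interleaved. The log2 fold change of 1.52 ± 0.57 had an adjusted p of 0.316 in edgeR and 0.112 in DESeq2, and it was 0.05 ± 0.31 in edgeR without those mice.

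The costimulatory genes were the least abundant of the 10 and differed most from each other. *Cd80* (chromosome 16, 38455561 to 38496335) had 17, 9, 9 and 10 estimated counts in controls and 10, 186, 19 and 134 in Ox1RΔSERT mice. Its normalized values were 0.445, 0.285, 0.203 and 0.210 against 0.218, 3.67, 0.427 and 2.76. The other 2 Ox1RΔSERT mice lay within the control range. At 2.63 ± 0.86 the log2 fold change was the largest of the 10, with an adjusted p of 0.316 in edgeR and 0.0483 in DESeq2. Without mice 11601 and 11708 it was 0.19 ± 0.49 in edgeR.

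*Cd86* (chromosome 16, 36603869 to 36666081) encodes the other CD28 ligand. It was at 0.915, 1.21, 0.881 and 1.18 normalized in controls and 0.852, 3.85, 1.37 and 3.09 in Ox1RΔSERT mice. Mouse 11243 was below every control. Its log2 fold change was 1.13 ± 0.45, with an adjusted p of 0.317 in edgeR and 0.177 in DESeq2, and it was 0.09 ± 0.30 in edgeR without mice 11601 and 11708.

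*Cd40* (chromosome 2, 165055627 to 165072948), the receptor for the T cell ligand CD40L, was the one gene of the 10 without an unadjusted p under 0.05. Its normalized values were 1.07, 0.920, 1.27 and 0.967 in controls and 0.983, 1.46, 0.718 and 1.67 in Ox1RΔSERT mice. The 2 high mice exceeded the controls by little, and mouse 11613 was below every other mouse. *Cd40* had a log2 fold change of 0.19 ± 0.29 (edgeR adjusted p = 0.764), and it was −0.31 ± 0.28 without mice 11601 and 11708.

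Of the adhesion genes, *Cd44* (chromosome 2, 102811141 to 102901665) encodes the hyaluronan receptor. Its controls were the tightest of the 10 genes relative to their mean, at 14.1, 12.8, 11.7 and 12.0 normalized. The Ox1RΔSERT mice were at 12.9, 137, 14.5 and 97.3. Mice 11243 and 11613 were next to the upper controls, and the other 2 were far above. The log2 fold change was 2.37 ± 0.73, with an adjusted p of 0.316 in edgeR and 0.0819 in DESeq2, and it was 0.12 ± 0.13 in edgeR without those mice.

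*Icam1* (chromosome 9, 21015985 to 21028817) encodes a ligand of leukocyte integrins that is made by endothelium, stroma and immune cells. Its normalized values were 5.15, 6.53, 7.43 and 9.21 in controls and 9.39, 11.7, 9.52 and 12.4 in Ox1RΔSERT mice. All 4 Ox1RΔSERT mice were above all controls (exact permutation p = 0.0286, unadjusted), with mouse 11243 barely above the highest. In TPM mouse 11243, at 2.77, was below the highest control, at 2.85. The log2 fold change was small, 0.60 ± 0.19, with an adjusted p of 0.316 in edgeR and 0.103 in DESeq2. Without mice 11601 and 11708 it was 0.42 ± 0.22. Its exons share 511 bases with the antisense gene *Gm47079*.

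**Figure D2:**
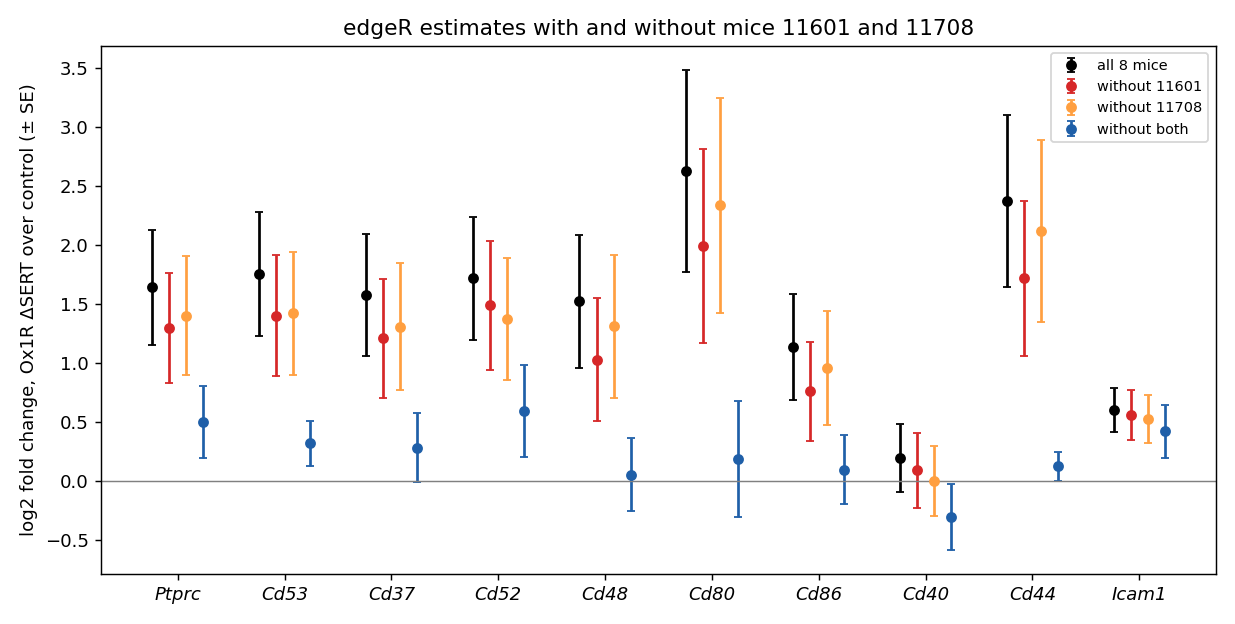
Log2 fold change of Ox1RΔSERT over control mice from edgeR, with its standard error, for all 8 mice and without mouse 11601, mouse 11708 or both. With both left out, estimates lie between −0.31 for *Cd40* and 0.59 for *Cd52*, and the 2.63 of *Cd80* and 2.37 of *Cd44* are at 0.19 and 0.12.

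Levels between genes were compared as TPM, which is per length. In controls the mean was 4.84 ± 1.11 TPM (SD, n = 4) for *Cd53*, 2.84 ± 1.02 for *Cd52*, 2.34 ± 0.39 for *Cd44* and 2.12 ± 0.56 for *Icam1*. The ranges of *Cd52*, *Cd44* and *Icam1* overlapped. *Ptprc* at 0.881 ± 0.264, *Cd48* at 0.869 ± 0.224 and *Cd37* at 0.804 ± 0.245 did not differ beyond their spread. Last came *Cd40* at 0.338 ± 0.098, *Cd86* at 0.332 ± 0.044 and *Cd80* at 0.127 ± 0.054. In Ox1RΔSERT mice the mean of *Cd80* was 1.11 ± 1.11 TPM, beside 0.984 ± 0.671 for *Cd86* and 0.518 ± 0.325 for *Cd40*, with spreads as large as these differences.

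*Cd80* and *Cd86* share the ligands CD28 and CTLA-4, so their ratio was taken in each mouse. *Cd80* was at 0.605, 0.340, 0.330 and 0.256 of the *Cd86* TPM in controls. In Ox1RΔSERT mice the ratio was 0.370, 1.38, 0.411 and 1.26. Only mice 11601 and 11708 had more *Cd80* than *Cd86* in TPM, and the others overlapped with the controls. The test used another measure, the log2 ratio of normalized values plus 0.1, which is not per length. There mice 11601 and 11708 were at −0.066 and −0.157. The group difference of 0.78 in the mean of that log2 ratio did not pass the exact permutation test (p = 0.171, two-sided).

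Each gene was then set against *Ptprc* in the same mouse, which gives its level relative to the common leukocyte marker. This log2 ratio uses normalized values plus 0.1 and is not per length, so only its differences between mice can be read. Of 9 ratios, 0 differed between the groups at p under 0.05 in the exact permutation test, against 16.6% of all genes. Of those 2408 genes, 2405 had a lower ratio in Ox1RΔSERT mice, the group with the higher mean of *Ptprc*, so the share is not a neutral rate. A limma fit across the ratios of 14488 genes also called 0 of the 9 and 64.2% of all genes. In that fit each gene had the same standard error, 0.613, and all ratios have *Ptprc* in common. These p-values are not adjusted over the 9 ratios.

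*Cd53*, *Cd52*, *Cd37* and *Cd48* kept the most even ratio to *Ptprc*, with an SD over the 8 mice of 0.30, 0.25, 0.23 and 0.25 log2 units. For *Cd53* the log2 ratio was 0.75, 0.11, 0.85 and 0.95 in controls and 0.58, 0.75, 0.32 and 0.89 in Ox1RΔSERT mice. The group difference was −0.03 (exact permutation p = 0.914), +0.05 for *Cd52* (p = 0.83) and −0.20 for *Cd37* (p = 0.229). *Cd48* was at −2.02, −2.29, −1.997 and −1.84 in controls and −2.44, −2.07, −2.57 and −2.30 in Ox1RΔSERT mice. There 3 of 4 Ox1RΔSERT mice lay below every control, and the difference of −0.31 had an exact permutation p of 0.0571.

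For the costimulatory genes, none of the 3 ratios passed the test. *Cd80* over *Ptprc* was −3.39, −4.33, −3.48 and −3.91 in controls and −4.47, −2.84, −3.91 and −3.08 in Ox1RΔSERT mice. Its highest values were those of mice 11601 and 11708 and its lowest that of mouse 11243, with a group difference of +0.20 (exact permutation p = 0.686), which was −0.41 without mice 11601 and 11708 and −0.42 with a pseudocount of 1. *Cd86* over *Ptprc* was −2.50, −2.58, −1.78 and −1.87 in controls and −2.89, −2.78, −2.43 and −2.92 in Ox1RΔSERT mice. Of the latter, 3 lay below every control, and the difference was −0.58 (exact permutation p = 0.0857). *Cd40* over *Ptprc* was −2.29, −2.93, −1.31 and −2.13 in controls and −2.71, −4.12, −3.28 and −3.77 in Ox1RΔSERT mice. Again 3 lay below every control, with a difference of −1.31 (exact permutation p = 0.0571), which was −0.83 without mice 11601 and 11708.

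For the adhesion genes, *Cd44* over *Ptprc* was 1.31, 0.73, 1.80 and 1.38 in controls and 0.88, 2.34, 0.88 and 2.01 in Ox1RΔSERT mice. The 2 high mice were above all controls and the other 2 near the lowest, and the difference was +0.22 (exact permutation p = 0.600), which was −0.05 without mouse 11601 and −0.43 without both high mice. *Icam1* over *Ptprc* was −0.12, −0.23, 1.16 and 1.00 in controls and 0.43, −1.20, 0.28 and −0.95 in Ox1RΔSERT mice. In this case mice 11601 and 11708 were below all others, and the difference was −0.81 (exact permutation p = 0.171).

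**Figure D3:**
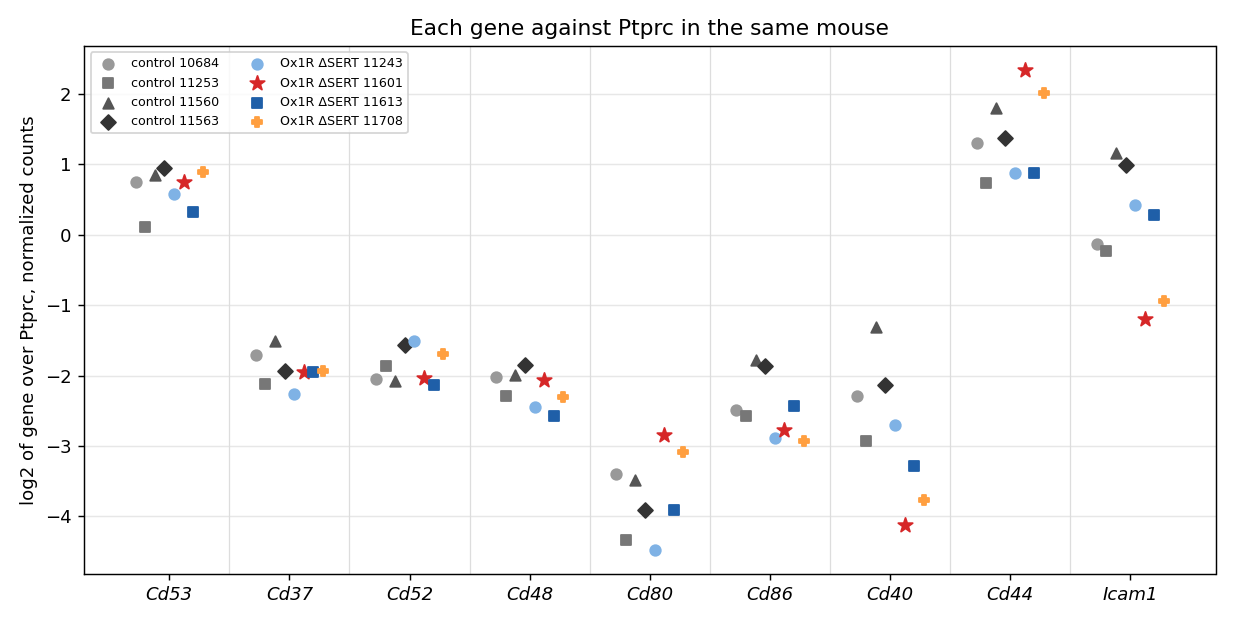
Log2 ratio of each gene to *Ptprc* in the same mouse, from normalized counts with 0.1 added to both, with controls in grey and black and Ox1RΔSERT mice in colour. *Cd53*, *Cd37*, *Cd52* and *Cd48* vary little between mice, whereas mice 11601 and 11708 are the highest for *Cd80* and *Cd44* and the lowest for *Cd40* and *Icam1*.

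The genes whose pattern over the 8 mice was nearest to that of *Ptprc* were named by the root-mean-square distance between centred log2 values. They were *Kcnk13*, a potassium channel gene, at 0.0747, *Tlr8*, an endosomal RNA sensor, at 0.159, *Fcgr4*, an Fc receptor, at 0.160, *Lcp1*, the leukocyte plastin, at 0.163, and *Lrrc25* at 0.174. The median distance over the 12268 genes ranked was 1.03. *Kcnk13* was at 0.811, 1.30, 0.429 and 0.694 normalized in controls and 1.00, 4.71, 1.24 and 3.83 in Ox1RΔSERT mice. *Cd37*, *Cd52*, *Cd48* and *Cd53* ranked 31, 43, 44 and 94, *Cd86* 344, *Cd80* 723, *Cd44* 746, *Icam1* 1743 and *Cd40* 2328. In each of the 5 nearest genes mice 11601 and 11708 had the highest values, which follows from choosing genes by their likeness to *Ptprc*. All genes share the same 8 libraries. The minimum mean of 1 for ranking is over all 8 mice, so *Cd80*, with a control mean of 0.286, was ranked only through the 2 high mice.

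The binding partners of these proteins were described from lists. Their counts stand beside 10.2% of all genes tested that were higher at an unadjusted edgeR p under 0.05, 719 of 14489 genes that were lower at that level, and 1.54% that DESeq2 called higher. Among the CD28 and B7 family, 4 of 9 genes were tested and 1 had an unadjusted edgeR p under 0.05, higher. This was *Cd276*, which encodes B7-H3, at 0.680, 0.349, 0.700 and 0.589 normalized in controls and 0.502, 9.03, 0.876 and 5.47 in Ox1RΔSERT mice. *Cd274*, which encodes PD-L1, had a log2 fold change of −0.28 ± 0.29. *Cd28* itself had at most 24 counts in any mouse. Among the CD40 and TNF superfamily, 9 of 16 were tested and 1 was higher at that level, a share near the 10.2% of all genes. This was *Tnfsf14* (2.44 ± 0.73), named after its values were seen. The signalling adaptors *Traf2*, *Traf3* and *Traf6* were at 0.20 ± 0.11, −0.06 ± 0.15 and −0.13 ± 0.16, and *Cd40lg* had at most 2 counts.

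Partners of CD45 included 7 tested genes, of which 5 were higher at an unadjusted p under 0.05 in edgeR (10.2% of all genes) and 1 was called by DESeq2. *Lyn*, a Src family kinase of myeloid and B cells, was at 15.2, 15.2, 11.9 and 12.7 normalized in controls and 14.5, 30.1, 13.4 and 27.2 in Ox1RΔSERT mice. The more abundant *Lgals1* and *Csk* had log2 fold changes of −0.04 ± 0.10 and 0.35 ± 0.14. Of ICAM-1 and leukocyte integrin partners 7 of 10 were higher at that level (10.2% of all genes), with a median log2 fold change of 1.45, and 3 were called by DESeq2. *Itgam* and *Itgb2*, the chains of the integrin Mac-1 that binds ICAM-1, had log2 fold changes of 1.75 ± 0.53 and 1.90 ± 0.62. The endothelial ligands *Icam2* and *Vcam1* were at 0.03 ± 0.24 and 0.23 ± 0.26.

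Among the SLAM family and CD2 partners of CD48, 4 of 7 tested genes were higher at an unadjusted p under 0.05 (10.2% of all genes), with a median of 1.55, and 1 was called by DESeq2. *Cd84*, a SLAM receptor, was at 2.59, 4.85, 2.12 and 2.82 normalized in controls and 3.38, 22.0, 3.75 and 18.2 in Ox1RΔSERT mice. Of the 9 CD44 ligands and partners, 7 were higher at that level, with a median of 1.53, and 3 were called by DESeq2, which called 1.54% of all genes higher. *Spp1*, which encodes the CD44 ligand osteopontin, was at 0.758, 1.43, 0.700 and 1.68 in controls and 2.51, 62.0, 6.35 and 64.2 in Ox1RΔSERT mice, which did not overlap. DESeq2 called it (log2 fold change 4.88 ± 1.06 in edgeR, DESeq2 adjusted p = 0.00166). The more abundant *Cd74* and *Msn* of this list had edgeR log2 fold changes of 0.95 ± 0.33 and 0.30 ± 0.18. Of the other tetraspanins 2 of 8 were higher and 1 was lower at that level, too few to set them apart from all genes, and *Cd81*, the most abundant, was at −0.02 ± 0.11.

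Markers of the cell types that BAT can hold were summed beside the 10 genes. The sums are in TPM, where the median log2 fold change of all genes was 0.23 to 0.32, beside 0.0021 with TMM. Small group differences in these sums can therefore not be read as changes in cells. The summed level of the 10 genes was 11.8 to 17.4 TPM in controls and 19.5, 126, 25.0 and 110 TPM in Ox1RΔSERT mice. Macrophage markers, of which 7 of 8 were higher at an unadjusted p under 0.05 in edgeR (10.2% of all genes), summed to 53.5 to 97.3 TPM in controls and 70.9, 417, 111 and 324 TPM in Ox1RΔSERT mice. *C1qb* and *Cd68* were the macrophage genes with log2 fold changes of 1.18 and 1.70. Neutrophil markers summed to 6.70 to 37.1 against 17.5 to 85.3 TPM, with 2 of 4 tested genes higher, while *Ly6g*, *Mpo* and *Elane* had at most 4 counts. Dendritic cell markers summed to 2.04 to 2.51 against 2.79 to 5.29 TPM, with 1 of 5 tested genes higher. Mast cell markers summed to 6.97 to 12.2 against 7.55 to 31.8 TPM, with 0 of 5.

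Lymphocyte markers were scarce. T cell markers summed to at most 1.49 TPM and 1 of 8 was tested, and NK cell markers summed to at most 1.29 TPM with 1 of 6 tested. B cell markers summed to 2.53 to 4.33 against 4.02 to 11.3 TPM, nearly all of it from *Ighm*.

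Outside the blood lineage, all 6 fibroblast markers were higher at an unadjusted p under 0.05 (10.2% of all genes), and their sum was 102 to 219 TPM in controls and 162, 1754, 276 and 785 TPM in Ox1RΔSERT mice. Endothelial markers had 0 of 6 at that level and a median log2 fold change of −0.02 in edgeR, and summed to 51.5 to 61.7 against 59.6 to 85.4 TPM. Brown adipocyte markers had 3 of 7 lower at that level, beside 719 of all 14489 genes tested. They were *Ucp1* (−0.54 ± 0.18), *Dio2* (−1.22 ± 0.50) and *Elovl3* (−1.07 ± 0.31 on the log2 scale). The abundant *Cidea*, *Adipoq* and *Plin1* were at −0.26 ± 0.21, −0.21 ± 0.15 and −0.03 ± 0.19. In edgeR 0 of the 7 log2 fold changes were above 0, with a median of −0.26. In TPM all 7 genes summed to 3337 to 4233 against 3263 to 4088. Skeletal muscle markers varied within both groups, with sums of 446 TPM in control 11253, 927 in mouse 11708 and 83.6 in mouse 11601, and at most 13.5 TPM in the other mice. Lymph node stroma and red blood cell markers had 0 tested genes at that level, with sums of 2.98 to 4.18 against 2.07 to 6.96 TPM and 724 to 1882 against 792 to 2231 TPM. The mitochondrial share of counts was 33.6%, 34% and 36.2% in mice 11601, 11613 and 11708 and 40.0% to 46.8% in the other 5. The part of these cell types and of the mitochondrial share in the differences of the 10 genes was not tested.

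**Figure D4:**
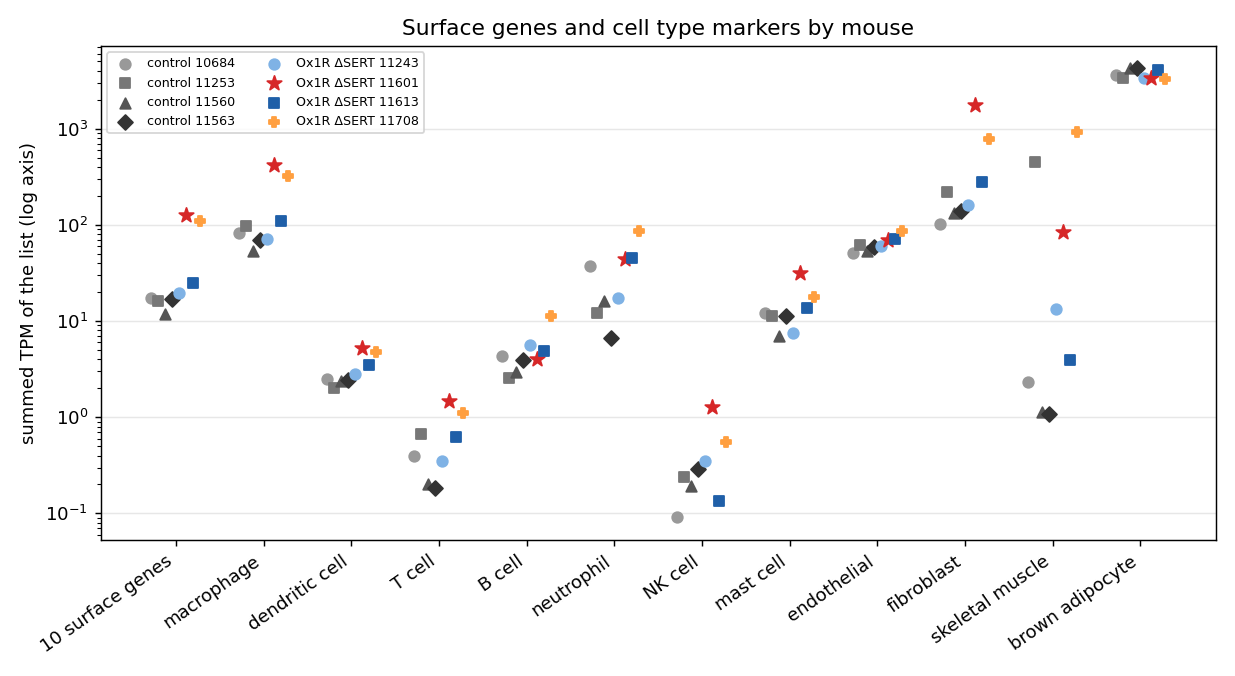
Summed TPM (log axis) of the 10 surface genes and of 11 lists of cell type markers in each of the 8 mice, with controls in grey and black and Ox1RΔSERT mice in colour. In mice 11601 and 11708 the 10 genes reach 126 and 110 TPM, macrophage markers 417 and 324 TPM and fibroblast markers 1754 and 785 TPM, all above the other mice, while T cell and NK cell markers stay under 1.5 TPM.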

How the data were processed

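BAT of 8 mice was studied by stranded, poly-A selected mRNA sequencing. The authors quantified genes with Salmon 0.14.1 in nf-core/rnaseq 1.4 against GRCm38 and deposited estimated counts per gene, not normalized, and TPM values, normalized for transcript length. The annotation release was not given in the sources used here. Symbols and positions were taken from GENCODE M21 (44118 of 44674 identifiers, 98.8%).

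Estimated counts were rounded and all 14489 genes that passed filterByExpr were fitted in R 4.3.3 with edgeR 4.0.16 (TMM, quasi-likelihood test, no covariates, two-sided, Benjamini-Hochberg, threshold 0.05). The SE of an edgeR log2 fold change is its absolute value divided by the square root of the F statistic of that test. The authors used DESeq2 1.26.0, and DESeq2 1.42.0 was an alternative here. A floor of 3 counts equals a normalized value of 0.0592 to 0.0951 and covers counting error only. Exact permutation tests used all 70 assignments. Ratios to *Ptprc* used a pseudocount of 0.1, were also fitted in limma 3.58.1, and were read from the exact tests. The distance to *Ptprc* was ranked over genes with a mean normalized value of at least 1. Other alternatives were scalings, filters, limma, the pseudocount, the reference gene and each mouse left out. Scripts were tested on simulated data. 

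The 10 genes and the 20 lists were chosen with earlier results of these data known. Genes of a list were named by a rule, at most 4 per list with the highest mean TPM, apart from *Cd28*, *Cd40lg*, *Tnfsf14*, *Ly6g*, *Mpo*, *Elane*, *Ighm*, *Dio2* and *Elovl3*, which were added after their values were seen.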

Additional observations from a re-analysis of the deposited data

Results flagged for a closer look

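The log2 ratio of *Cd37* to *Ptprc* in the 4 Ox1RΔSERT mice was marked because 1 mouse stood apart. Mouse 11243 was at −2.26, and mice 11601, 11613 and 11708 were at −1.95, −1.95 and −1.93, so that the gap took 0.941 of the range, above Dixon's critical value for 4 samples. Of 38 groups examined this way 1 was marked, and chance marks about 1 in 20.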

How the results depend on the processing

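edgeR called 0 genes under each scaling, filter and left-out mouse, and limma voom and limma-trend called 0. DESeq2 called 265 genes and 4 of the 10, and 8 genes and 0 of the 10 without mice 11601 and 11708, a setting chosen after the data were seen. With 1 mouse left out DESeq2 called 373, 247, 17 and 49 genes without controls 10684, 11253, 11560 and 11563, and 1516, 17, 936 and 19 without mice 11243, 11601, 11613 and 11708. Of the 10 it then called 2, 2, 0 and 0, and 8, 0, 7 and 0. Total-count and TPM scaling moved the median of all genes to 0.22 to 0.32 log2 units, and of the genes at an unadjusted p under 0.05 in edgeR 3012 of 3100 were higher with total-count scaling, against 1482 of 2201 with TMM. Over all settings the adjusted p ran from 0.000723 to 1.0 for *Ptprc*, 0.000903 to 1.0 for *Cd80*, 0.00282 to 1.0 for *Cd52* and 0.000567 to 1.0 for *Cd53*. *Cd40* had a log2 fold change of −0.0022 to 0.37 in edgeR with 1 mouse left out, with −0.0022 in edgeR and −0.0061 in DESeq2 without mouse 11708, and −0.308 and −0.309 without both mice. Among ratios to *Ptprc*, 1 of 9 passed the exact permutation test with *Cd53* as reference (*Cd40*, −1.27, p = 0.0286) and 1 with a pseudocount of 1 (*Cd48*, −0.48, p = 0.0286). Ratios near 0 changed sign. *Cd44* was at −0.048 (without mouse 11601) to 0.44 with 1 mouse left out and at −0.43 without both, and *Cd80* at −0.043 to 0.50 and at −0.41, and at −0.42 with a pseudocount of 1. *Cd52* was at −0.21 with that pseudocount and at −0.0603 to 0.157 with 1 mouse left out (−0.0033, −0.012 and −0.0019 without mice 10684, 11560 and 11708, and −0.0603 without 11243). *Cd53* was at 0.037 with TPM, 0.025 with the pseudocount, and at −0.22 to 0.073 with 1 mouse left out (0.065, 0.031 and 0.073 without mice 11563, 11560 and 11613). Beyond these mice and settings the cause was not tested. The paper states that control and knockout mice were littermates. No paired analysis was possible because the labels give mouse numbers and no litters. *Cd80* rests on 9 to 19 counts outside mice 11601 and 11708, which limits its precision there.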
